A study of Mus musculus with 9 samples.

Results

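The promoters of 42 genes that encode the DNA replication machinery were followed by ATAC-Seq in mouse embryonic fibroblasts (MEFs) during their conversion to induced pluripotent stem cells (iPSCs). ATAC-Seq uses the Tn5 transposase, which cuts open chromatin, so that the ends of the sequenced fragments pile up where DNA was accessible. The genes were listed by what their proteins do, with earlier results of these data known. They were 42 of the 22367 protein-coding genes on the assembled chromosomes of the annotation (GENCODE vM1, mouse genome build mm9), and the other 22325 genes served as the contrast. All 42 were found in the annotation.

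There were 9 libraries, 1 for each condition, and no difference between them could be checked in replicates. All cells came from MEFs with a GFP tag on Oct4, which were reprogrammed by infection with pMXs retroviruses for Oct4, Sox2, Klf4 and c-Myc (OSKM). The methods count day 0 from this infection, and whether the D0 cells were collected before or after it is not given in the sources used here. D0 and D3, collected on day 0 and day 3, were not sorted. D6T- and D9T- were the Thy-1-negative cells of day 6 and day 9, having lost a surface protein of fibroblasts, D12S+ and D16S+ were the SSEA-1-positive cells of day 12 and day 16, and iPSCs were the end point. D6 siH3.3 and D6 siNT were Thy-1-negative cells of day 6 given siRNA against the histone variant H3.3 or non-targeting siRNA before OSKM. A library therefore stands for a sorted subpopulation at 6 conditions and for the whole culture at D0 and D3, and the knockdown was transient and acted on mRNA, so that the accessibility of the H3.3 genes gives no check of it.

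DNA replication begins with licensing, when the origin recognition complex (ORC), Cdc6 and Cdt1 load the MCM2-7 ring helicase on DNA and geminin (Gmnn) holds Cdt1 back. The kinase Cdc7 with its activator Dbf4 then lets Cdc45 and the GINS complex join the ring, which becomes the active helicase. Primase, the polymerases delta and epsilon, the sliding clamp PCNA with its loader RFC, the single-strand binding protein RPA, and the nuclease Fen1 and the ligase Lig1 that join Okazaki fragments copy the strands, and ribonucleotide reductase supplies deoxynucleotides. Genes of this machinery are textbook targets of the E2F transcription factors at the entry into S phase, and pluripotent stem cells are known for a short cell cycle with much of it in S phase.

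A promoter was the stretch within 1000 bp of the start site (TSS) of any transcript of a gene, and it was open in a library when a called region overlapped it. Its level was the highest pileup of the region per 1000000 tags of the library (CPM), the pileup being how many 200-bp tags lay over a summit. It does not scale with gene length. The libraries held 13213117 (D9T-) to 31714845 (D0) tags and 36708 to 133132 regions, and the lowest pileup called was 7 to 11 tags, or 0.331 to 0.530 CPM, below which an open promoter was not detectable. The median level of the 10015 promoters open in every library was 0.946 CPM at D0 and 2.25 at D3, 3.74 in D6T- and 1.44 in D9T-, 2.38 in D12S+ and 2.31 in D16S+, and 1.17 in iPSCs, with 1.39 in D6 siH3.3 and 1.38 in D6 siNT. Because this median differed between libraries, a relative level, the log2 of a level over it, is given beside the CPM. From D6T- to D6 siNT, both Thy-1-negative cells of day 6, this median fell by 1.44 on the log2 scale. As a check of the labels, promoters of 3 of 9 pluripotency markers were open at D0: Pou5f1, Esrrb and Fut4. Pou5f1 is the gene of Oct4, which the viruses carried too. The count was 5 at D3 and D6T-, 3 at D9T-, 7 at D12S+ and 9 at D16S+ and in iPSCs. In D6 siH3.3 it was 1 and in D6 siNT 3. Nanog and Zfp42 were open only from D12S+ on in the time course, while Fut4 was called from D0 to D9T- and not at D12S+. Of 7 fibroblast markers, 5 were open at D0, 6 at D3, D12S+ and D16S+, 5 at D6T-, 4 in iPSCs and 3 at D9T- and in both siRNA libraries, so this list did not set D0 apart from the later libraries. Postn was called in no library.

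Nearly all replication promoters were open throughout. In all 9 libraries, 41 of the 42 members were open, or 97.6% with an exact binomial interval of 87.4 to 99.9%, where 9974 of the other genes, or 44.7%, were. Single libraries had 41 or 42 members open. Among the other genes the share was 57.7% at D0 and 68.1% at D3, 67.2% in D6T- and 50.6% in D9T-, 63.0% in D12S+ and 63.5% in D16S+, and 64.6% in iPSCs, and it was 54.4% in D6 siH3.3 and 54.9% in D6 siNT. The contrast includes 5805 genes, or 26.0%, whose promoter was open in no library, so these shares place the members among all genes and not among those in use. Intervals cover counting error only.

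The exception was Prim1, the catalytic subunit of primase (chr10:127452228-127467093, plus strand). Its promoter reached 23 tags at D3, 19 at D6T-, 19 at D12S+, 14 at D16S+ and 18 in iPSCs, and it was not called at D0, D9T- and in both siRNA libraries. At these levels of 0.661 to 1.08 CPM it lay close to the lowest levels that could be called. Whether it was closed in the other 4 libraries was therefore not detectable at this depth.

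The highest and the lowest members were far apart within a library. At D6T- the level was 11.3 CPM at Gins2 (242 tags) and 0.888 CPM at Prim1 (19 tags), with exact Poisson intervals of 9.93 to 12.8 and 0.535 to 1.39 CPM. The median of the members was 1.10 CPM at D0 and 2.43 at D3, 4.25 in D6T- and 1.51 in D9T-, 2.95 in D12S+ and 2.46 in D16S+, and 1.35 in iPSCs, with 1.55 in D6 siH3.3 and 1.61 in D6 siNT. Among all open promoters of a library, this median stood at the 71.8th percentile at D0 and 70.6 at D3, 72.0 in D6T- and 57.1 in D9T-, 74.6 in D12S+ and 67.5 in D16S+, and 73.7 in iPSCs, and at 64.8 in D6 siH3.3 and 68.9 in D6 siNT. Against the promoters open in all libraries it was lower, at 55.8 at D3, 58.5 at D6T-, 64.7 at D12S+ and 55.2 at D16S+, since weakly open promoters then leave the contrast. The plot of levels by library shows both medians and the spread.

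**Figure D1:**
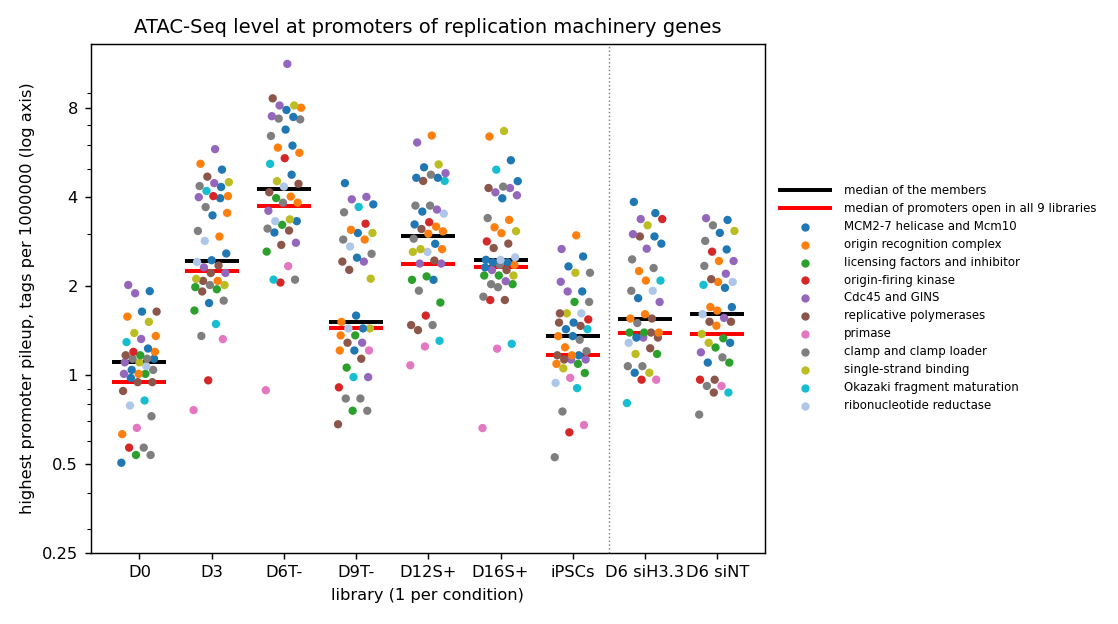
Highest promoter pileup in tags per 1000000 tags of the library (log axis) of each member in the 9 libraries, with 1 point per gene coloured by role. Black bars mark the median of the members and red bars the median of the promoters open in all libraries; both were highest at D6T- (4.25 and 3.74 CPM) and lowest at D0 (1.10 and 0.946 CPM).

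E2F octamers were counted in the open stretch of each promoter. In the 300 bases around the D6T- summit, an E2F octamer (TTTCCCGC, TTTCGCGC, TTTGCCGC or TTTGGCGC, on either strand) was present in 14 of 42 members, or 33.3% with an exact interval of 19.6 to 49.5%. It was present in 3.80% of the 15007 other promoters open at D6T- and in 4.35% of the other promoters open in all libraries. All 6 genes of the MCM2-7 ring held one, beside Orc3, Cdc6, Gmnn, Gins3, Pole, Pole2, Pold3 and Rfc3. No match was present in the genes of the firing kinase, primase, RPA, Okazaki fragment maturation and ribonucleotide reductase. Of the 28 members with no other protein-coding gene starting in their window, 10 held a match.

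The matches lay at 18 places, 14 of which began within 100 bases of the nearest TSS, and all began between 121 bases before and 131 bases after the summit. Overlapping matches on both strands, as at Mcm2, were counted as 1 place. Of the other fork and origin factors that were no members, 9 of 28 held a match: Orc1, Pola1, Pole4, Mcm8, Mcmbp, Timeless, Tipin, Clspn and Topbp1. So did 5 of 23 G1/S regulators, E2f1 and Cdc25a among them, and Dnmt1. None of the 7 H3.3, 5 fibroblast and 5 pluripotency promoters open at D6T- did. With a share of 3.80% among the other open promoters, 0 matches do not set such short lists apart.

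The 120 bases upstream of the TSS are shown for Mcm3 and Mcm6, which held E2F matches, and for Gins2, which had the highest level at D6T- and held none; capitals mark the octamers, and all sequences are from the mm9 genome along the strand of the gene.
Mcm3 (chr1:20810360-20810479, minus strand): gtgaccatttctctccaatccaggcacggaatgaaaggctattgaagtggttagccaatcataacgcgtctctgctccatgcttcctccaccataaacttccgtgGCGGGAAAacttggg
Mcm6 (chr1:130256234-130256353, minus strand): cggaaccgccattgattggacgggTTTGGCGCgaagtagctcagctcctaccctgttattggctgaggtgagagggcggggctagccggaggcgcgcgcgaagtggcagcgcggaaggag
Gins2 (chr8:123113205-123113324, minus strand): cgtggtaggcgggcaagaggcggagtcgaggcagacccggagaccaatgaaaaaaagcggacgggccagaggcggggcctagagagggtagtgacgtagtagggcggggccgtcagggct

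For the rest of the ring genes and for Cdc6, Pole2 and Rfc3, the 30 bases around a match are shown, to compare the octamers and what flanks them.
Mcm2 (chr6:88848672-88848701, minus strand): tggtctagtTTTCGCGCGAAAaccggtggc
Mcm4 (chr16:15637553-15637582, minus strand): agctacacgccTTTGCCGCtgtgattggcc
Mcm5, upstream (chr8:77633246-77633275, plus strand): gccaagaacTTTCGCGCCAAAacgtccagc
Mcm5, downstream (chr8:77633449-77633478, plus strand): ggaggctggttTTTCCCGCgaaagtcggct
Mcm7 (chr5:138613258-138613287, minus strand): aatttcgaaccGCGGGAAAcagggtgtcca
Cdc6 (chr11:98769144-98769173, plus strand): agtagagcggcTTTGGCGCgagttgacttt
Pole2 (chr12:70329149-70329178, minus strand): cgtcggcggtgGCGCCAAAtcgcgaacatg
Rfc3 (chr5:152453775-152453804, minus strand): acgtcgcacgcTTTCGCGCtcGCGGGAAAa
At Mcm2 and at the upstream place of Mcm5, 2 octamers overlapped on opposite strands. At Mcm3 the match shown began 15 bases upstream of the TSS and another began 4 bases downstream of it. That of Cdc6 began 8 bases upstream, the pair of Rfc3 began 10 and 6 bases upstream of the nearest TSS of each, and that of Pole2 began 10 bases downstream.

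Other motifs differed less. CCAAT, the site of NF-Y, was present in 59.5% of the members against 37.4% of the other promoters open at D6T-, the Ets core CCGGAA in 45.2% against 26.6%, the Sp1 box GGGCGG in 76.2% against 65.8% and the Nrf1 core CGCATGCG in 7.14% against 3.16%. The cell cycle homology region (TTTGAA or TTCGAA), a site of late cell cycle genes, was present in 11.9% against 9.59%. Among the other promoters open in all libraries, the shares were 42.9% for CCAAT, 32.1% for the Ets core and 74.8% for the Sp1 box. They were 4.00% for the Nrf1 core and 8.88% for the cell cycle homology region, so the Sp1 box hardly differed there. None of the other motif words contains an E2F octamer. The GC content was alike, with a median of 64.3% against 64.0% in the other promoters open at D6T-. The ratio of observed to expected CpG was 0.906 against 0.781 in the same contrast. Neither was computed for the promoters open in all libraries. A match is a description of the letters and does not show that a factor was bound.

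**Figure D2:**
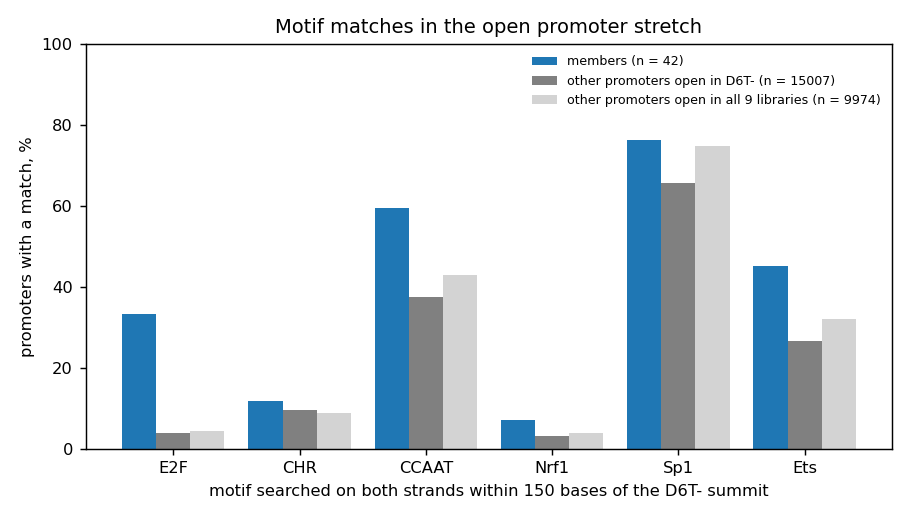
Share of promoters (%) with a match to each motif within 150 bases of the D6T- summit, for the 42 members, the 15007 other promoters open at D6T- and the 9974 other promoters open in all libraries. E2F octamers were present in 33.3% of the members and in 3.80% and 4.35% of the contrasts.

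Members with an E2F match were not consistently the more open ones. Their median relative level was 0.09 at D0 against 0.26 in members with none, -0.03 against 0.25 at D6T- and 0.13 against 0.35 at D12S+. At D3 it was 0.02 against 0.27 and in D6 siH3.3 0.08 against 0.34. The medians were close at D9T- (0.03 against 0.07), D16S+ (0.07 against 0.10) and in D6 siNT (0.22 against 0.22). In iPSCs the order was the other way, with 0.35 against 0.13. These medians are over 14 and 27 or 28 genes and are given without a test.

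Along the time course the replication promoters followed the library-wide movement. From D0 to D3, 32 of 41 members rose at least 2-fold in CPM, where 62.0% of the other promoters open in both passed 2-fold. From D0 to D6T- all 41 passed 2-fold, against 90.2% of the others, with a median of 4.40-fold against 3.82-fold. From D3 to D6T-, 7 of 42 were at least 2-fold higher, against 20.8%. From D6T- to D9T-, 28 of 41 were at least 2-fold lower, against 73.4%. From D9T- to D12S+, 10 of 41 were at least 2-fold higher, against 22.4%, and from D16S+ to iPSCs 21 of 42 were at least 2-fold lower, against 37.5%. Between the end points D0 and iPSCs, 7 of 41 were at least 2-fold higher, against 10.6%. Of the 41 members with a level in every time-course library, 39 were highest at D6T-, where 89.0% of the others were, and 30 were lowest at D0, where 71.1% of the others were.

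Relative to the other open promoters the members changed little. The median log2 change of the members minus that of the other promoters was 0.19 from D0 to D3, with a binomial interval of the members' median of -0.04 to 0.45. It was 0.02 from D3 to D6T- (-0.09 to 0.16), -0.09 from D6T- to D9T- (-0.24 to 0.21) and 0.14 from D9T- to D12S+ (-0.22 to 0.26). It was -0.03 from D12S+ to D16S+ (-0.12 to 0.09), -0.16 from D16S+ to iPSCs (-0.33 to 0.04) and 0.06 from D0 to iPSCs (-0.18 to 0.29). Each of these intervals included 0. From D0 to D6T- the difference was 0.20 (-0.01 to 0.36). Against the promoters open in all libraries it was smaller, at 0.07 from D0 to D3 and -0.06 from D16S+ to iPSCs. The intervals treat genes as draws and contain no spread between replicate cultures.

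**Figure D3:**
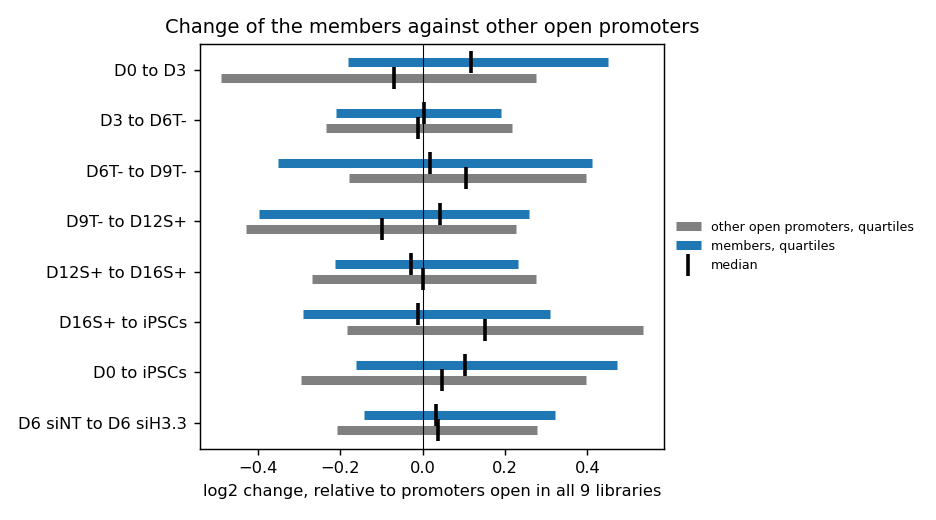
Log2 change of the level relative to the promoters open in all libraries, for the members (blue) and the other promoters open in both libraries (grey). Bars span the quartiles and black ticks mark the medians; for D0 to D3 the medians differed by 0.19 and for D6 siNT to D6 siH3.3 by -0.0041, and the quartiles overlapped in every comparison.

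On the relative scale few members passed 2-fold in either direction. From D0 to D3 it was 1 of 41 (Mcm6, 1.03), against 9.83% of the others. It was 0 of 42 from D3 to D6T- (2.33%), 0 of 41 from D6T- to D9T- (3.92%) and 0 of 41 from D0 to D6T- (11.1%). From D9T- to D12S+ it was 1 of 41 (Rfc1, 1.21), against 5.91%, and from D12S+ to D16S+ it was 0 of 42, against 2.34%. From D16S+ to iPSCs it was 1 of 42 (Prim1, 1.02), against 8.02%, and from D0 to iPSCs 1 of 41 (Mcm6, 1.27), against 6.36%. The members' range over the time course, the highest minus the lowest relative level of a gene, had a median of 0.89, against 0.88 over 10281 other genes. The following values by role show which genes made up that range, as drawn in the map of relative levels.

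**Figure D4:**
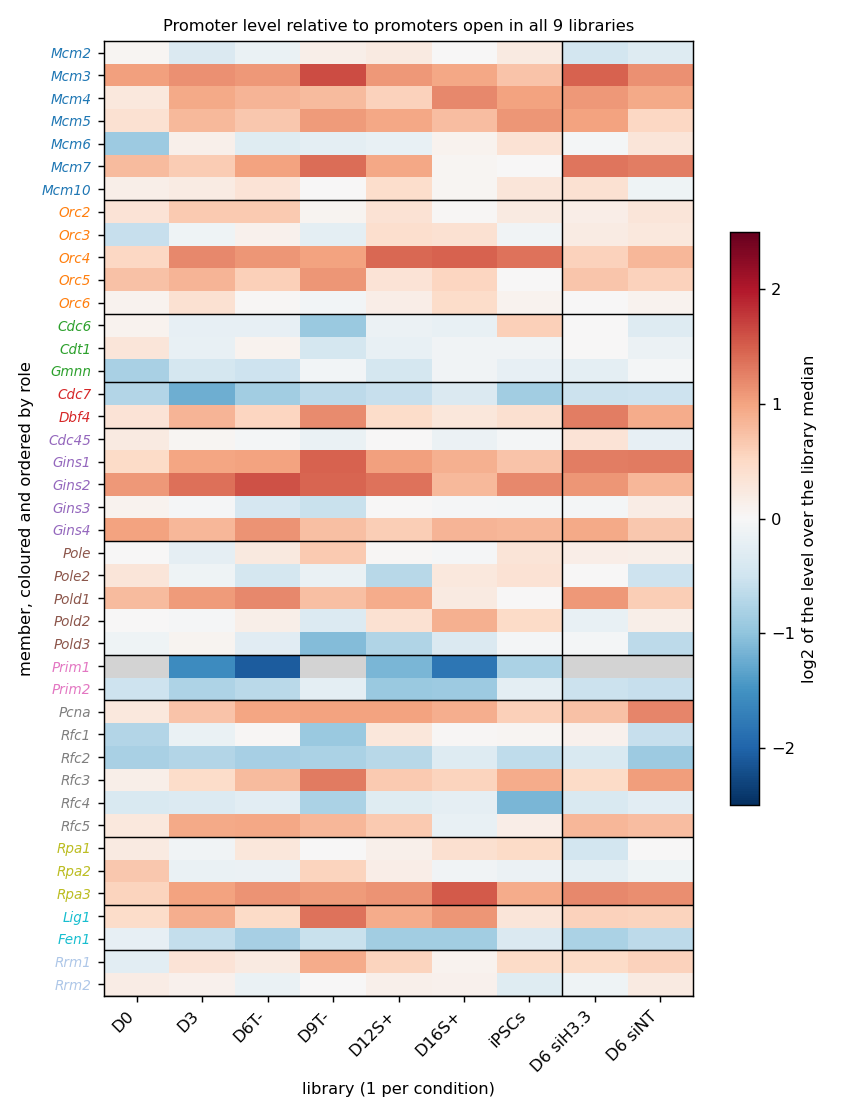
Log2 of each member's level over the library median of promoters open in all libraries (red above, blue below, grey not called), by library and in order of role. Gins2 and Mcm3 were above the median in all 9 libraries and Cdc7, Prim2 and Rfc2 below it in all 9, while Mcm6 was low at D0 (-0.91) and Mcm7 close to 0 at D16S+ and in iPSCs.

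Among the genes of the MCM2-7 ring, Mcm3 had the highest median level over the libraries, in CPM and on the relative scale. Mcm2 had the lowest median in CPM and Mcm6 on the relative scale, at -0.06 against 0.00 for Mcm2. Mcm3 had 1.92 CPM at D0 and 4.96 at D3, 7.90 in D6T- and 4.47 in D9T-, 5.05 in D12S+ and 4.53 in D16S+, and 1.92 in iPSCs, with 3.86 in D6 siH3.3 and 3.03 in D6 siNT. Mcm2 had 0.978 CPM at D0 and 1.75 at D3, 3.32 in D6T- and 1.59 in D9T-, 2.78 in D12S+ and 2.31 in D16S+, and 1.35 in iPSCs, with 1.02 in D6 siH3.3 and 1.10 in D6 siNT. Relative to the library, Mcm3 was above the median everywhere, by 0.72 (iPSCs) to 1.63 (D9T-), and Mcm2 lay between -0.45 and 0.22.

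Mcm6 and Mcm7 moved in opposite ways between the end points. Mcm6 had 0.505 CPM at D0 and 2.45 at D3, 3.04 in D6T- and 1.21 in D9T-, 2.10 in D12S+ and 2.46 in D16S+, and 1.50 in iPSCs, with 1.34 in D6 siH3.3 and 1.70 in D6 siNT. It had the fewest tags of all called members at D0, 16, and rose from a relative level of -0.91 at D0 to 0.12 at D3 and 0.37 in iPSCs. Its relative change from D0 to iPSCs was 1.27 with a counting interval of 0.41 to 2.21. Mcm7 had 1.64 CPM at D0 and 3.47 at D3, 7.48 in D6T- and 3.78 in D9T-, 4.66 in D12S+ and 2.41 in D16S+, and 1.17 in iPSCs, with 3.54 in D6 siH3.3 and 3.35 in D6 siNT. Its relative level was 0.79 at D0, 1.00 in D6T- and 1.40 in D9T-, 0.97 in D12S+, then 0.06 in D16S+ and 0.00 in iPSCs, and its relative change from D0 to iPSCs was -0.79 (-1.48 to -0.12). The Mcm7 window also holds the TSS of Ap4m1, and its highest summit moved by up to 881 bp between libraries, so the level was not always read at 1 place.

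Mcm4 and Mcm5 were high and gained relative to D0. Mcm4 had 1.14 CPM at D0 and 4.33 at D3, 6.78 in D6T- and 2.50 in D9T-, 3.58 in D12S+ and 5.34 in D16S+, and 2.33 in iPSCs, with 2.95 in D6 siH3.3 and 2.66 in D6 siNT, and its relative level went from 0.26 at D0 to 1.21 at D16S+ and 1.00 in iPSCs. Its window also holds the TSS of Prkdc, the catalytic subunit of DNA-dependent protein kinase. Mcm5 had 1.23 CPM at D0 and 3.97 at D3, 5.98 in D6T- and 3.03 in D9T-, 4.66 in D12S+ and 3.97 in D16S+, and 2.52 in iPSCs, with 2.79 in D6 siH3.3 and 1.97 in D6 siNT, and its relative level went from 0.38 at D0 to 1.11 in iPSCs. Mcm10, which helps to activate the helicase, stayed between -0.10 and 0.44 on the relative scale in the 9 libraries.

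In the origin recognition complex, Orc5 and Orc4 had the highest median levels in CPM, 3.01 and 2.97, and Orc6 had the lowest. On the relative scale Orc4 came before Orc5, with medians of 1.10 and 0.60. Orc4 had 1.36 CPM at D0 and 5.19 at D3, 8.04 in D6T- and 2.88 in D9T-, 6.47 in D12S+ and 6.42 in D16S+, and 2.97 in iPSCs, with 2.09 in D6 siH3.3 and 2.43 in D6 siNT. Orc5 had 1.58 CPM at D0 and 4.04 at D3, 5.66 in D6T- and 3.10 in D9T-, 3.01 in D12S+ and 3.35 in D16S+, and 1.17 in iPSCs, with 2.25 in D6 siH3.3 and 2.07 in D6 siNT. Orc6 had 1.01 CPM at D0 and 2.94 at D3, 3.83 in D6T- and 1.36 in D9T-, 2.67 in D12S+ and 3.16 in D16S+, and 1.24 in iPSCs, with 1.39 in D6 siH3.3 and 1.47 in D6 siNT. Orc4 had a relative level of 0.52 at D0 and 1.21 at D3, 1.10 in D6T- and 1.00 in D9T-, 1.44 in D12S+ and 1.47 in D16S+, and 1.35 in iPSCs. Orc5 had one of 0.74 at D0 and 0.84 at D3, 0.60 in D6T- and 1.11 in D9T-, 0.34 in D12S+ and 0.54 in D16S+, and 0.00 in iPSCs. Orc4 was thus the higher at D3 and D6T- and from D12S+ on, and the pair lay farthest apart in iPSCs. The relative change of Orc4 from D0 to iPSCs was 0.83 (0.28 to 1.40). Orc4 shares its window with Mbd5, Orc3 with Rars2 and Orc6 with Vps35.

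Orc2 and Orc3 were nearer to the library median, at 0.03 to 0.66 and -0.58 to 0.42. Orc3 was lowest at D0, with 0.631 CPM (20 tags), and reached 4.02 CPM (86 tags) at D6T-, a relative change of 0.69 (-0.03 to 1.47). All 5 ORC members had a relative change above 0 from D0 to D3, as did 44.8% of the other promoters, and 1 of 5 from D6T- to D9T-, against 59.7% of the others.

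The licensing factors lay around or below the library median. Cdc6 had 1.01 CPM at D0 and 1.95 at D3, 3.23 in D6T- and 0.757 in D9T-, 2.16 in D12S+ and 2.03 in D16S+, and 1.77 in iPSCs, with 1.39 in D6 siH3.3 and 1.10 in D6 siNT. Gmnn had 0.536 CPM at D0 and 1.65 at D3, 2.62 in D6T- and 1.36 in D9T-, 1.76 in D12S+ and 2.17 in D16S+, and 1.02 in iPSCs, with 1.18 in D6 siH3.3 and 1.33 in D6 siNT. Cdc6 was the lowest of its own time course at D9T- on the relative scale, at -0.93 (10 tags), and highest in iPSCs, at 0.60. From D16S+ to iPSCs, Cdc6 had one of the smallest falls of the members, from 2.03 to 1.77 CPM, a relative change of 0.79 (0.16 to 1.42). Cdt1 stayed between -0.44 and 0.30 on the relative scale, and Gmnn, its inhibitor, was below 0 in all 9 libraries, from -0.82 at D0 to -0.05 in D6 siNT.

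The subunits of the origin-firing kinase had unlike promoters. Dbf4, the activator, had 1.20 CPM at D0 and 4.04 at D3, 5.42 in D6T- and 3.25 in D9T-, 3.29 in D12S+ and 2.83 in D16S+, and 1.54 in iPSCs, with 3.37 in D6 siH3.3 and 2.62 in D6 siNT. Cdc7, the kinase, had 0.568 CPM at D0 and 0.959 at D3, 2.06 in D6T- and 0.908 in D9T-, 1.59 in D12S+ and 1.79 in D16S+, and 0.640 in iPSCs, with 0.964 in D6 siH3.3 and 0.964 in D6 siNT. Dbf4 was above the library median in all 9 libraries and Cdc7 below it in all 9, with relative levels of 0.29 to 1.28 and -1.23 to -0.37. The Dbf4 window also holds the TSS of Slc25a40, and its region was the widest of all members, up to 2448 bp.

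Of Cdc45 and the GINS complex, Gins1 and Gins2 had the highest median levels in CPM, 4.01 and 3.94, and Gins3 had the lowest. On the relative scale Gins2 came before Gins1, with medians of 1.20 and 1.01, and Cdc45 and Gins3 were lowest, at -0.05 and -0.03. Gins1 had 1.32 CPM at D0 and 4.47 at D3, 7.53 in D6T- and 4.01 in D9T-, 4.83 in D12S+ and 4.30 in D16S+, and 1.92 in iPSCs, with 3.37 in D6 siH3.3 and 3.40 in D6 siNT. Gins2 had 2.02 CPM at D0 and 5.82 at D3, 11.3 in D6T- and 3.94 in D9T-, 6.13 in D12S+ and 4.06 in D16S+, and 2.67 in iPSCs, with 3.00 in D6 siH3.3 and 2.43 in D6 siNT. Gins3 had 1.01 CPM at D0 and 2.22 at D3, 2.80 in D6T- and 0.984 in D9T-, 2.38 in D12S+ and 2.27 in D16S+, and 1.13 in iPSCs, with 1.34 in D6 siH3.3 and 1.56 in D6 siNT. Gins2 was the highest of all members at D0, D3 and D6T-. Gins1, Gins2 and Gins4 were above the library median in all 9 libraries, while Gins3 lay between -0.55 and 0.18. At Gins1 the highest summit was at -689 bp from the nearest TSS at D6T-. It moved by up to 4985 bp between libraries, to near another TSS of the gene. Abhd12 shares the window, and the Gins1 values belong to either place.

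Cdc45, which shares its window with Ufd1l, had 1.10 CPM at D0 and 2.32 at D3, 3.60 in D6T- and 1.29 in D9T-, 2.38 in D12S+ and 2.08 in D16S+, and 1.13 in iPSCs, with 1.77 in D6 siH3.3 and 1.19 in D6 siNT. It stayed within 0.34 of the library median in all 9 libraries.

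Of the polymerase genes, Pold1, the catalytic subunit of polymerase delta, had the highest median level and Pold3, an accessory subunit, the lowest. Pold1 had 1.64 CPM at D0 and 4.70 at D3, 8.65 in D6T- and 2.42 in D9T-, 4.54 in D12S+ and 2.69 in D16S+, and 1.17 in iPSCs, with 2.95 in D6 siH3.3 and 2.11 in D6 siNT. Pold3 had 0.883 CPM at D0 and 2.35 at D3, 3.09 in D6T- and 0.681 in D9T-, 1.42 in D12S+ and 1.79 in D16S+, and 1.13 in iPSCs, with 1.34 in D6 siH3.3 and 0.872 in D6 siNT. Pold1 fell from a relative level of 0.93 at D12S+ to 0.22 at D16S+ and 0.00 in iPSCs, and its relative change from D0 to iPSCs was -0.79 (-1.48 to -0.12), the same tags as at Mcm7. Pold3 was lowest at D9T-, at -1.08, with 9 tags.

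Pold2, the second subunit of polymerase delta, went the other way, from a relative level of 0.00 at D0 to 0.89 at D16S+ (4.30 CPM, 91 tags) and 0.47 in iPSCs. Pole, the catalytic subunit of polymerase epsilon, which shares its window with Pxmp2, lay between -0.23 and 0.66. Its partner Pole2 had 1.17 CPM at D0 and 2.08 at D3, 2.76 in D6T- and 1.29 in D9T-, 1.48 in D12S+ and 2.79 in D16S+, and 1.50 in iPSCs, with 1.39 in D6 siH3.3 and 0.964 in D6 siNT. From D0 to D6T- Pole2 had one of the smallest rises of all members, 2.36-fold, a relative change of -0.74 (-1.36 to -0.11).

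Both primase promoters were low. Prim2, which shares its window with 1700001G17Rik, had 0.662 CPM at D0 and 1.32 at D3, 2.34 in D6T- and 1.21 in D9T-, 1.25 in D12S+ and 1.23 in D16S+, and 0.978 in iPSCs, with 0.964 in D6 siH3.3 and 0.918 in D6 siNT. Its relative level was below 0 in all 9 libraries, from -0.93 to -0.25, and that of Prim1 was -0.78 to -2.07 in the 5 libraries where it was called. From D16S+ to iPSCs Prim1 was the member that did not fall in CPM, with 0.661 and 0.677 CPM from 14 and 18 tags, and the interval of its relative change (-0.07 to 2.14) included 0. Prim2 had one of the smallest falls over the same step.

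Of the clamp and its loader, Pcna had the highest median level and Rfc2 the lowest. Pcna had 1.14 CPM at D0 and 3.70 at D3, 7.39 in D6T- and 2.88 in D9T-, 4.77 in D12S+ and 4.35 in D16S+, and 1.77 in iPSCs, with 2.30 in D6 siH3.3 and 3.21 in D6 siNT. Rfc2 had 0.536 CPM at D0 and 1.36 at D3, 2.10 in D6T- and 0.833 in D9T-, 1.48 in D12S+ and 1.84 in D16S+, and 0.752 in iPSCs, with 1.07 in D6 siH3.3 and 0.735 in D6 siNT. From D0 to D6T-, Pcna, Rfc5 and Rfc1 had the 3 largest rises of all members: 6.51-fold, 6.47-fold and 6.75-fold, with relative changes of 0.72 (0.19 to 1.28), 0.71 (0.18 to 1.27) and 0.77 (0.02 to 1.60). The median relative change of the 6 clamp and loader genes over these days was 0.68, with 5 of 6 above 0, against 46.2% of the other promoters.

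Rfc1, the large subunit of the loader, had 0.568 CPM at D0 and 2.02 at D3, 3.83 in D6T- and 0.757 in D9T-, 2.90 in D12S+ and 2.36 in D16S+, and 1.20 in iPSCs, with 1.50 in D6 siH3.3 and 0.918 in D6 siNT. It was low at D0 and again at D9T-, at 18 and 10 tags, so that its relative rise from D9T- to D12S+ followed on a low count. Rfc3 had 1.04 CPM at D0 and 3.08 at D3, 6.45 in D6T- and 3.56 in D9T-, 3.75 in D12S+ and 3.40 in D16S+, and 2.22 in iPSCs, with 1.93 in D6 siH3.3 and 2.85 in D6 siNT. Rfc5 had 1.14 CPM at D0 and 4.37 at D3, 7.34 in D6T- and 2.57 in D9T-, 3.75 in D12S+ and 2.03 in D16S+, and 1.32 in iPSCs, with 2.46 in D6 siH3.3 and 2.34 in D6 siNT. Rfc3 kept a relative level of 0.93 in iPSCs, while Rfc5 fell from 0.65 at D12S+ to -0.19 at D16S+.

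Rfc4 had 0.725 CPM at D0 and 1.79 at D3, 3.13 in D6T- and 0.833 in D9T-, 1.93 in D12S+ and 1.98 in D16S+, and 0.527 in iPSCs, with 1.07 in D6 siH3.3 and 1.15 in D6 siNT. It had the largest fall of all members from D16S+ to iPSCs, from 42 to 14 tags, a relative change of -0.92 (-1.91 to -0.02), and the lowest level of all members in iPSCs. The loader is a ring of 5 subunits, and in iPSCs their relative levels went from -1.15 (Rfc4) to 0.93 (Rfc3).

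Of the RPA genes, Rpa3, the smallest subunit, had the highest median level in CPM and on the relative scale. Rpa1, the largest, had the lowest in CPM, but on the relative scale Rpa2 was lowest, with a median of -0.10 against 0.13 for Rpa1. Rpa3 had 1.39 CPM at D0 and 4.50 at D3, 8.18 in D6T- and 3.03 in D9T-, 5.17 in D12S+ and 6.71 in D16S+, and 2.22 in iPSCs, with 3.21 in D6 siH3.3 and 3.08 in D6 siNT. Rpa1 had 1.10 CPM at D0 and 2.12 at D3, 4.53 in D6T- and 1.44 in D9T-, 2.61 in D12S+ and 3.07 in D16S+, and 1.62 in iPSCs, with 1.02 in D6 siH3.3 and 1.38 in D6 siNT. Rpa2 had 1.51 CPM at D0 and 2.02 at D3, 3.37 in D6T- and 2.12 in D9T-, 2.67 in D12S+ and 2.17 in D16S+, and 1.05 in iPSCs, with 1.18 in D6 siH3.3 and 1.29 in D6 siNT. Rpa3 was the highest of all members at D16S+, with a relative level of 1.54, and then had one of the largest falls to iPSCs, a relative change of -0.61 (-1.07 to -0.16). Rpa2 had the smallest rise of all members to D6T-, 2.22-fold, and the lowest change from D0 to iPSCs, where it fell from 48 to 28 tags, a relative change of -0.82 (-1.55 to -0.12). Rpa1 shares its window with Smyd4 and Rpa3 with Gm16039.

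Of the Okazaki fragment genes, Lig1 was high and Fen1 low. Lig1 had 1.29 CPM at D0 and 4.20 at D3, 5.19 in D6T- and 3.71 in D9T-, 4.54 in D12S+ and 4.96 in D16S+, and 1.43 in iPSCs, with 2.09 in D6 siH3.3 and 2.02 in D6 siNT. Fen1 had 0.820 CPM at D0 and 1.49 at D3, 2.10 in D6T- and 0.984 in D9T-, 1.31 in D12S+ and 1.28 in D16S+, and 0.903 in iPSCs, with 0.803 in D6 siH3.3 and 0.872 in D6 siNT. Lig1 fell from 105 to 38 tags from D16S+ to iPSCs, a relative change of -0.81 (-1.38 to -0.26). Fen1 was below the library median in all 9 libraries, and its highest summit moved by up to 971 bp in a window that 1810006K21Rik shares, as 6330408A02Rik shares that of Lig1.

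For ribonucleotide reductase, Rrm2 lay near the library median and Rrm1 mostly above it, with median relative levels of 0.10 and 0.47. Rrm1, the large subunit, had 0.788 CPM at D0 and 2.84 at D3, 4.35 in D6T- and 2.72 in D9T-, 3.52 in D12S+ and 2.46 in D16S+, and 1.62 in iPSCs, with 1.93 in D6 siH3.3 and 2.07 in D6 siNT. Rrm2, the small subunit, had 1.07 CPM at D0 and 2.41 at D3, 3.32 in D6T- and 1.44 in D9T-, 2.61 in D12S+ and 2.50 in D16S+, and 0.941 in iPSCs, with 1.29 in D6 siH3.3 and 1.61 in D6 siNT. Rrm1 was lowest on the relative scale at D0, at -0.26, and highest at D9T-, at 0.92, while Rrm2 stayed between -0.31 and 0.22.

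Knockdown of H3.3 was compared with the control siRNA at day 6, to ask whether the replication promoters opened or closed with less H3.3 at the start of reprogramming. The siH3.3 and siNT libraries held 18669683 and 21784047 tags. On the relative scale 0 of 41 members passed 2-fold in either direction, against 0.911% of the other promoters open in both. The median log2 change of the members was 0.05 and that of the others 0.05, a difference of -0.0041 (-0.15 to 0.12), and 22 of 41 members had a relative change above 0, against 53.9% of the others. The members ranged from -0.58 to 0.69.

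At the upper end were Rfc1, with 20 tags in D6 siNT and 28 in D6 siH3.3, a relative change of 0.69 (-0.19 to 1.60), Pold3, with 19 and 25 tags, 0.60 (-0.32 to 1.54), and Cdc45, with 26 and 33 tags, 0.55 (-0.24 to 1.35). At the lower end were Rfc3, with 62 and 36 tags, -0.58 (-1.21 to 0.04), Pcna, with 70 and 43 tags, -0.50 (-1.08 to 0.07), and Rpa1, with 30 and 19 tags, -0.45 (-1.36 to 0.42). Every member's counting interval included 0. With 15 to 74 tags per member in these libraries, the intervals allow changes of up to about 2-fold at many members, so that the comparison does not show that they were alike.

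**Figure D5:**
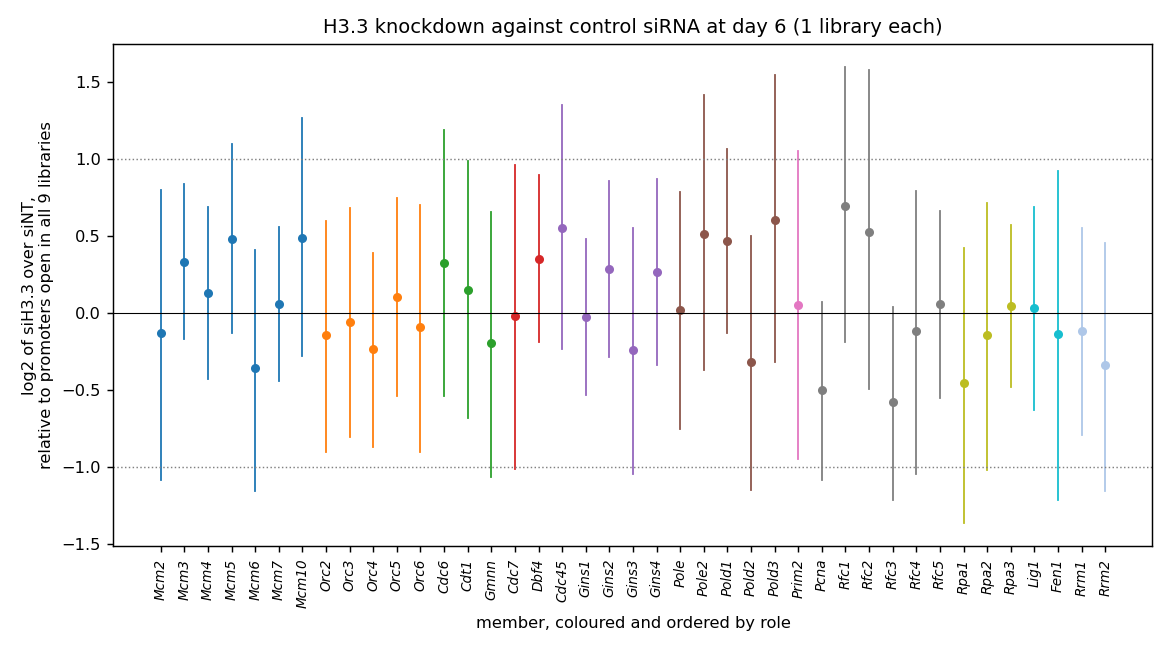
Log2 of the level in D6 siH3.3 over D6 siNT for 41 members, relative to the promoters open in all libraries, with exact counting intervals (vertical lines) and coloured by role. Dotted lines mark 2-fold; no point passed them and every interval crossed 0.

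By role, 5 of 7 MCM genes, 4 of 5 polymerase genes and 3 of 5 genes of Cdc45 and GINS had a relative change above 0. So did 1 of 5 ORC genes, 1 of 3 RPA genes and 0 of 2 ribonucleotide reductase genes. In the remaining roles it was 3 of 6 clamp and loader genes, 2 of 3 licensing genes and 1 of 1 primase gene. The firing kinase and Okazaki fragment maturation had 1 of 2 each. These are small counts, to be read beside the 53.9% of other promoters above 0. The library scale matters here: D6 siNT and D6T- were both Thy-1-negative cells of day 6, and 38 of 41 members were at least 2-fold lower in D6 siNT than in D6T-, against 83.3% of the other promoters. On the relative scale 0 of 41 passed 2-fold between them, against 3.01%. The difference between these libraries was thus larger than that between siH3.3 and siNT, and its cause was not tested.

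Other genes of the pathway gave similar counts in the knockdown. Of 29 other fork and origin factors, 28 were in the annotation and 25 were open in both siRNA libraries, with a median relative change of 0.15. One of them passed 2-fold: Donson, a replication fork protein, with 29 tags in D6 siNT and 11 in D6 siH3.3, a relative change of -1.19. No counting interval was computed for it, and 0.911% of all non-member promoters open in both passed 2-fold. In the time course Donson had 0.599 CPM at D0 and 2.35 at D3, 3.04 in D6T- and 0.984 in D9T-, 1.70 in D12S+ and 2.17 in D16S+, and 0.865 in iPSCs. Of 5 genes of nucleotide supply, 21 G1/S regulators, 9 factors of replication-coupled chromatin assembly and 7 H3.3 genes and chaperones open in both, 0 passed 2-fold, with medians of -0.31, 0.13, 0.12 and -0.34.

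The members' summits were mostly at the start site. At D6T- the summit of 36 of 42 members lay within 150 bp of a TSS, and 32 of the 42 summits lay upstream of the nearest TSS. Over the libraries the summit of a member moved by a median of 103.5 bp. It moved by at most 200 bp at 33 members and by over 500 bp at 5, which were Gins1, Fen1, Mcm7, Prim2 and Gmnn. The median width of the members' regions followed the library, with 522 bp at D0 and 1048.5 bp in D6T-, beside 502 and 1041 bp for the other open promoters. Of the members, 14 shared their window with the TSS of another protein-coding gene, named above with each, and at these the level cannot be assigned to either gene. Summit positions, their movement and shared windows were not counted for the other promoters, so these counts do not set the members apart.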

How the data were processed

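ATAC-Seq of 9 libraries of MEFs undergoing reprogramming was used, with 1 library per condition as the labels give it. Reads of 51 bp were aligned to mm9 by the authors with STAR, who then removed duplicates with Picard and dropped mitochondrial reads. They called peaks in each library with MACS2 2.1.0.20151222, without a control or local background, at a q-value cutoff of 0.05. As deposited, pileup is a signal: how many tags of 200 bp overlie a summit, with no correction for depth. The deposited fold enrichment sets this pileup as a ratio to an even genomic background. The deposited significance is −log10 of the q-value. The calls were made on each library alone, so weak promoters drop out of shallow libraries.

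Peaks that overlapped within a library were joined into 1 region, and the highest pileup of a region that overlapped a promoter window was divided by the total tags of the library. The gene models were those of GENCODE vM1, made on the build of the files, and no peak ended beyond a chromosome of the reference. Promoters past 2-fold were counted, and the median change of the members was set beside that of all other promoters open in both libraries. No test between conditions was possible with 1 library each. Intervals are at 95%: exact Poisson for levels, exact conditional binomial for log2 ratios, Clopper-Pearson for shares and binomial order statistics for medians. The members and the gene lists were chosen with earlier results of these data known. Genes were named with all values when they were not open everywhere, were the highest or lowest of their role by median CPM, or were among the 3 largest or smallest changes from D0 to D6T-, D16S+ to iPSCs, D0 to iPSCs or siNT to siH3.3. Mcm4, Mcm5 and Gins2 were added after their values were seen. Partner genes, marker genes and listed genes past 2-fold in the knockdown were named too. Python 3.11.15 with numpy 2.4.6, pandas 2.3.3 and scipy 1.17.1 was used, and 9 of 9 checks on simulated data passed. Other windows, start sites, peak thresholds, tag minimums, contrasts, measures and scalings were tried as alternatives. RNA-Seq and ChIP-Seq were not analysed here.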

Additional observations from a re-analysis of the deposited data

How the results depend on the processing

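In 7 alternatives the number of members open in every library compared was 32 to 41, against 41. It was 40 with 3 kb upstream of the TSS, 35 when each library kept as many strong regions as D9T- had in all and 32 with the stronger 0.5 of the regions, where 36.8% and 30.7% of the other genes were open in all under the last 2 settings. The difference between the median change of the members and that of other promoters was computed in 80 alternatives, kept its sign in 73 and stayed within the interval given in the text in 79. The exception was D6T- to D9T-, at 0.25 with a minimum of 20 tags in place of -0.09, over 21 members. For D16S+ to iPSCs the interval left out 0 with 3 kb upstream of the TSS (-0.31 to -0.03). For siH3.3 against siNT the alternatives lay between -0.03 and 0.02, and for D0 to iPSCs between 0.02 and 0.08.

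The percentile of the members' median moved out of its interval in 8 of 90 alternatives. With a minimum of 20 tags it was 63.1 at D0, 61.0 at D16S+ and 55.1 in D6 siH3.3, and with the stronger 0.5 of the regions it was 55.1 in D6 siH3.3. Against the promoters open in all libraries it was 55.8 at D3, 58.5 at D6T-, 64.7 at D12S+ and 55.2 at D16S+. Counts past 2-fold in CPM rested on the scaling, as the text gives for each step. Leaving out the 14 members that share a window was added after the data were seen and gave 0.02 for siH3.3 against siNT. No paired analysis was possible because each condition had 1 library. Depth limits single members most at D9T-, where the median member had 20 tags and Pold3 had 9.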

Other observations

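Inside the members' genes, beyond the promoter windows, 28 regions in 15 genes were called at D0, 43 in 19 at D3 and 48 in 21 at D6T-. There were 13 in 8 genes at D9T-, 18 in 9 at D12S+, 11 in 7 at D16S+ and 21 in 12 in iPSCs, with 18 in 11 genes in D6 siH3.3 and 12 in 9 in D6 siNT. These were 0.0216% (D16S+) to 0.0399% (D3) of all regions of a library. The counts were highest at D3 and D6T-, which had the most regions. They did not follow the number of regions throughout, with 11 among 50890 at D16S+ and 13 among 36708 at D9T-. The share of members with such a region was 16.7% at D16S+ to 50.0% at D6T-, against 28.9% and 49.9% of the other genes, and 35.7% against 39.1% at D0.

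The promoter of Pou5f1, the gene of Oct4, had 13.1 CPM at D0 and 24.7 at D3, 19.4 in D6T- and 12.2 in D9T-, 21.2 in D12S+ and 26.3 in D16S+, and 14.4 in iPSCs, above every replication promoter in each of these libraries, D0 included. In the siRNA libraries it had 9.37 CPM in D6 siH3.3 and 9.64 in D6 siNT. The reprogramming viruses carried Oct4 as well, and whether reads of the viral copy added to these levels was not tested.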
